A study of Mus musculus with 16 samples.

Results

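The mitochondrial transcript share is the percentage of the UMIs of a cell that came from genes encoded by mitochondrial DNA, where a UMI (unique molecular identifier) marks 1 captured RNA molecule. The authors summed these genes for each cell, and the share was described here for all 163343 of 163343 deposited cells, over 16 tumors, 15 cell classes and 39 numbered clusters. The deposited table gives the sum and not the genes behind it, and it holds no expression of single genes, so the classes are the authors' own and their markers were not examined. Multiplied by the UMI count of the cell, the share gave a whole number of mitochondrial UMIs in 100% of cells, within 1e-06 of a UMI.

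Mitochondrial DNA is a small circle kept in many copies in each cell and transcribed inside the mitochondrion. In the GENCODE annotation of GRCm39 it carries 37 genes, of which 22 encode transfer RNAs, 2 encode ribosomal RNAs and 13 encode proteins. The proteins are 7 subunits of complex I, 1 of complex III, 3 of complex IV and 2 of ATP synthase, the enzymes of oxidative phosphorylation. In single-cell libraries the share is widely used as a mark of quality, since cells that have lost cytoplasm keep RNA enclosed in mitochondria, and it also differs between cell types with their content of mitochondria.

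The mutant tumors carried an edit in one of these genes, mt-Nd5, a complex I subunit at chrM:11742-13565 on the plus strand, 1 of the 13 protein-coding genes that the share can count. Either edit, G11944A or G12436A in positions of mitochondrial DNA, changes the second base of a TGA codon, which codes for tryptophan in mitochondria, to give the stop codon TAA. The first edit lies in codon 68 of 608 and leaves 1621 bases of the gene behind it, and the second lies in codon 232 and leaves 1129. The reference sequence around each is shown because these are the designed differences between the mitochondrial DNA of the groups, with the edited codon in capitals.
m.11944 in mt-Nd5, chrM:11931-11957: acaacctggcacTGAgtcaccataaat
m.12436 in mt-Nd5, chrM:12423-12449: ggcctccacccaTGActaccatcagca

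B78 cells, an amelanotic mouse melanoma line derived from B16, were injected subcutaneously into C57BL/6 males aged 8 to 11 weeks. There were 7 wild-type tumors, 3 m.11944 60% tumors, 3 m.12436 60% tumors and 3 m.12436 80% tumors, where the percentage is the heteroplasmy, the part of the mitochondrial DNA that carried the edit in the engrafted cells. Each mutant line was an edited cell population made with a mitochondrial base editor, only the cancer cells carry the edit, and every tumor was digested with collagenase and DNase and sorted for live cells before capture. The deposited table divides the tumors into batches: the first holds wild type 1 to 3 with m.11944 60%, the second wild type 4, 5 and 7 with m.12436 60%, and the third wild type 6 with m.12436 80%.

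Tumors held 6371 to 13448 cells, with a median of 3131 to 7528 UMIs per cell. Between 22.0 and 66.5 mitochondrial UMIs stood behind the share of the median cell of a tumor, and 408041 to 995165 behind a whole tumor. The authors had removed every cell over 5%, so the upper end of each distribution is cut there, and the cells removed were not analyzed here. Of 160030 distinct barcodes, 3278 occurred in more than 1 library, with 6 to 66 shared in any of 120 library pairs.

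Over all cells the share had a median of 0.772% and a mean of 0.910%. The middle of the distribution was narrow: 25% of cells lay below 0.533% and 75% below 1.08%, with the 5th and 95th percentiles at 0.249% and 2.06%. The fullest interval of 0.25 percentage points, from 0.5% to 0.75%, held 26.0% of cells. There was no pile of cells at the limit of 5%, since 2.21% of cells lay at 3% or more and 0.849% at 4% or more. No mitochondrial UMI was counted in 386 cells, or 0.236%.

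Lymphocytes, endothelial cells and cancer cells had the higher mitochondrial shares, and phagocytes the lower. The level of a class in a tumor is the median over its cells, and values below are the mean ± SD of these medians over 16 tumors. They were highest in B cells, the antibody-making lymphocytes, at 1.06% ± 0.280, in the endothelial cells that line vessels at 0.990% ± 0.339, and in T cells that the authors assigned to no subset at 0.973% ± 0.172. The B cell mean holds wild type 2, at 1.96% from 15 cells, and the endothelial mean wild type 5, at 2.14% from 12 cells, both far above the other wild-type tumors. Cancer cells followed at 0.917% ± 0.104, natural killer (NK) cells at 0.852% ± 0.157, CD4 T cells, the helper lymphocytes, at 0.828% ± 0.195 and CD8 T cells, the killer lymphocytes, at 0.795% ± 0.134. Fibroblasts, which make the matrix, stood at 0.716% ± 0.209. Macrophages, the engulfing cells of tissues, and monocytes, which can become macrophages, were nearly level at 0.708% ± 0.107 and 0.704% ± 0.109. Dendritic cells (DC), which present antigen, at 0.572% ± 0.0963 and neutrophils, short-lived phagocytes known for few mitochondria and much glycolysis, at 0.524% ± 0.106 came last.

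Most neighbors in this order differed by less than the SD of their difference over tumors, which is a comparison with spread and not a test. Of 11 neighboring pairs, only monocytes and DC differed by more than the spread of their difference over tumors, by 0.133 ± 0.0288 percentage points, with monocytes higher in 16 of 16 tumors. Classes further apart were ordered more firmly, and 29 of all 66 pairs had the same order in every tumor. Neutrophils were the lowest of the 12 classes in 11 tumors, DC in 3 and fibroblasts in 2. The highest class changed more often, being endothelial cells in 5 tumors, cancer cells in 4, B cells and T cells in 3 each and fibroblasts in 1.

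The 3 rare classes do not have 5 cells in every tumor and were kept out of the comparisons. Mast cells, granule-bearing cells of allergy, had tumor medians of 0.964% ± 0.193 over 14 tumors, and erythroid cells, of the red cell lineage, 0.734% ± 0.181 over 15. The 22 basophils had the lowest median of all classes over pooled cells, 0.410%, which rests on a median of 8.50 mitochondrial UMIs per cell.

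**Figure D1:**
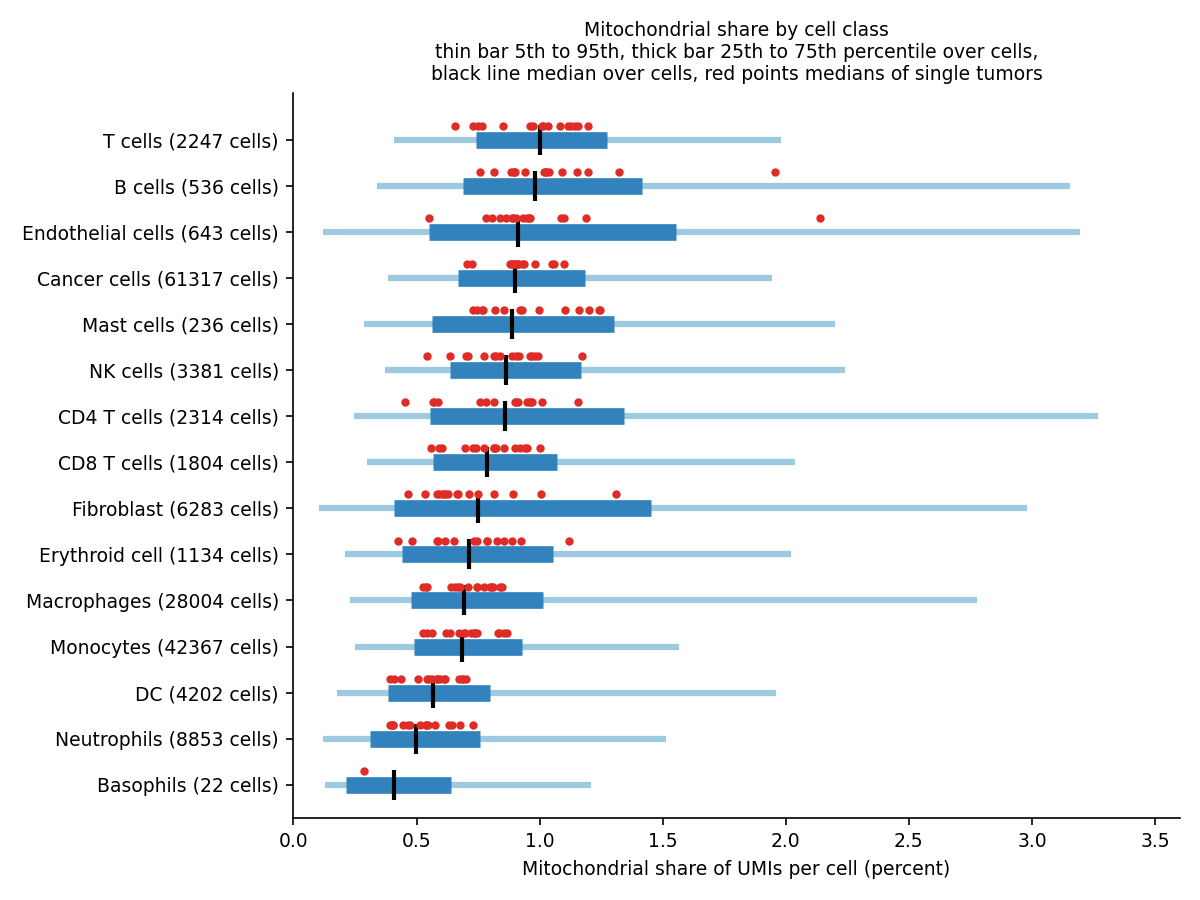
Mitochondrial share of UMIs (percent, horizontal axis) in 15 cell classes, with the 5th to 95th percentile over cells as a thin bar, the 25th to 75th as a thick bar, the median as a black line and the medians of single tumors with at least 5 cells as red points. The medians over cells run from 0.410% in basophils to 1.00% in T cells, and the upper ends spread more than the medians, from 1.21% in basophils to 3.27% in CD4 T cells.

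Classes with a like median differed in the width of the distribution. Macrophages and monocytes had medians of 0.694% and 0.687% over cells, but the 95th percentile was 2.78% in macrophages and 1.57% in monocytes. Fibroblasts were spread to both sides, with 5% of cells below 0.106% and 5% above 2.98%. The authors called 29.1% of cells in this class aneuploid, and m.11944 60% 1 supplied 1944 of its 6283 cells. Aneuploid fibroblasts had a median of 0.653% at 6496 UMIs, and diploid ones 0.802% at 1201 UMIs. Within tumors the aneuploid cells were higher in 8 of 16. The part of ploidy in the spread was not tested. CD4 T cells reached 3.27% at the 95th percentile and T cells 1.98%. Within single tumors, the 95th percentile was 4.14 ± 1.02 times the median in fibroblasts and 3.83 ± 0.392 times in macrophages, against 2.27 ± 0.321 in monocytes, 2.14 ± 0.272 in cancer cells and 2.10 ± 0.333 in T cells.

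A cell with few UMIs has a coarse share, so the ends of the distributions were also compared at 1 depth. Each cell was thinned to 1000 UMIs by the exact expectation, and shallower cells were left out, which removed 0.171% of cancer cells, 23.1% of CD4 T cells and 26.8% of fibroblasts. The percentage of cells at 3% or more was then 7.37 in endothelial cells, 4.59 in fibroblasts, 3.79 in macrophages, 3.21 in CD4 T cells, 1.96 in cancer cells and 0.978 in monocytes. In the same kept cells without thinning it was 6.91, 4.26, 3.51, 3.03, 1.76 and 0.910, and over all cells 7.31, 4.89, 4.17, 6.14, 1.77 and 1.09. Thinning thus raised each of these 6 values, and leaving out shallow cells lowered them, most of all in CD4 T cells. Variance between cells was 35.1 times that of counting in cancer cells, 24.4 times in macrophages, 8.63 times in monocytes and 5.25 times in T cells, as medians over tumors. These ratios are over all cells without thinning and grow with depth, so they do not rank the classes. At the median, cancer cells had 12165 UMIs and T cells 2452, while the SD over cells was 0.583 and 0.536 percentage points.

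Cancer cells supplied most of the mitochondrial RNA. They were 37.5% of cells, held 69.9% of all UMIs and 73.8% of the 10805292 mitochondrial UMIs, with 111 per cell at the median. Monocytes, 25.9% of cells, supplied 9.70% with 20 per cell, and macrophages, 17.1% of cells, supplied 9.47% with 28 per cell. Neutrophils were 5.42% of cells and supplied 0.801%, with 7 per cell.

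The authors' clusters were made from the expression of these cells, so differences between them are given as a description. Cancer cells fell into 11 clusters, whose medians ran from 0.682% in cluster 27 to 1.06% in cluster 2, and cluster 2 was the higher in 15 of 16 tumors. Cluster 2 was 93.1% G1 cells with 9845 UMIs at the median, and cluster 27 was 74.6% G2M cells with 17399. Fibroblast cluster 15 stood at 0.913% and cluster 23 at 0.528%, with cluster 15 higher in 13 of 16 tumors. Cluster 15 had a median of 1287 UMIs per cell and cluster 23 of 6099. The 4 monocyte clusters lay close together, from 0.660% in cluster 6 to 0.746% in cluster 5. The range was 0.554% in cluster 19 to 0.621% in cluster 29 among DC, 0.761% in cluster 33 to 0.803% in cluster 24 among CD8 T cells, and 0.492% in cluster 7 to 0.620% in cluster 35 among neutrophils.

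**Figure D2:**
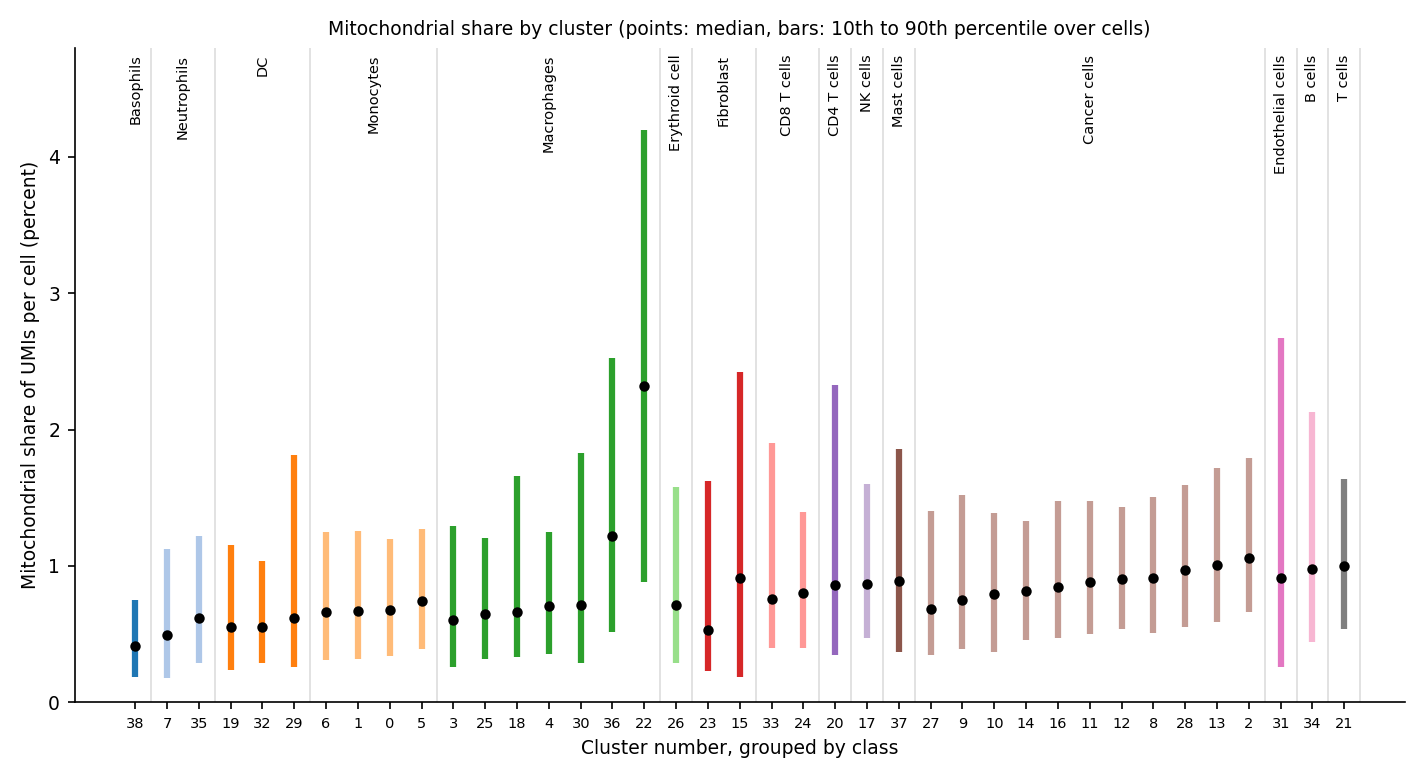
Median mitochondrial share (percent, points) of the 39 clusters with the 10th to 90th percentile over cells (bars), grouped by class. Macrophage cluster 22 stands above the others with a median of 2.32% and macrophage cluster 36 follows at 1.22%, while the other clusters lie between 0.410% and 1.06%.

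Macrophage cluster 22 was far above every other cluster. Its 2098 cells had a median of 2.32%, with the 10th and 90th percentiles at 0.881% and 4.20%, and the lowest macrophage cluster, cluster 3, had 0.607%. Over tumors its median ranged from 1.43% to 3.17%, and that of all other macrophages from 0.511% to 0.831%. It was higher in 16 of 16 tumors, by a factor of 3.59 ± 0.640, and made up 3.54% to 15.4% of the macrophages of a tumor. The cluster held 1.28% of all cells but 654 of the 3615 cells at 3% or more, or 18.1%, and 55.9% of such macrophages.

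The numerator and the denominator of the share moved apart in this cluster. As means over tumors, a median cell of cluster 22 had 32.0 mitochondrial UMIs and any other macrophage 31.4, while the total was 1333 UMIs against 4569. The share of ribosomal gene UMIs was also lower, at 7.52% ± 1.87 against 12.3% ± 1.51. By depth, the median among cells of up to 1000 UMIs was 2.19% in 586 cells of the cluster and 1.14% in 294 other macrophages, the smallest gap of the bins with at least 20 cells. Among cells of over 1000 to 2000 UMIs it was 2.44% in 1054 cells of the cluster and 0.678% in 3279 other macrophages, and among those of over 2000 to 4000 UMIs it was 2.17% and 0.646%. After thinning to 1000 UMIs, 33.9% of its cells lay at 3% or more. The part that the lower UMI count and the lower ribosomal share have in the level of this cluster was not tested.

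Cluster 36, with 381 cells, was the next macrophage cluster at 1.22%. Its tumor medians varied widely, at 1.23% ± 0.534, and 26.0% of its cells were called aneuploid by the authors, against 0.0202% to 0.286% in the other macrophage clusters. It also had the highest median doublet score of all 39 clusters, 0.0727, where the other macrophage clusters had 0.0217 or less, and the part of doublets in its share was not tested. Of all 28004 macrophages, 125 were called aneuploid, most of them in cluster 36, with a median share of 1.16%, and the others had 0.693%.

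Shallow cells had the higher share in nearly every class. Within each tumor that held at least 30 cells of a class, these cells were ordered by UMI count and the lowest and highest tertiles compared. The share was higher in the shallow tertile in 16 of 16 tumors in cancer cells, at 0.994% against 0.859%, in macrophages, at 0.902% against 0.668%, and in NK cells, at 0.947% against 0.779%. CD4 T cells had the largest gap, 1.29% against 0.706%, in 15 of 16 tumors, and DC had 0.745% against 0.529% in 15 of 16. Cluster 22 is among these macrophages, and pooled over tumors the macrophages outside it had 1.14% up to 1000 UMIs and then 0.678%, 0.646%, 0.675% and 0.665% in the bins up to 2000, 4000, 8000 and 16000. Monocytes and neutrophils differed less. In monocytes the values were 0.750% and 0.687%, higher in 13 of 16 tumors, and in neutrophils 0.537% and 0.520%, higher in 10 of 16.

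The relation was not a straight line in cancer cells. Pooled over tumors, their median was 0.903% in the 106 cells of up to 1000 UMIs, 1.51% in those of over 1000 to 2000, 1.12% from there to 4000, and 0.920%, 0.918% and 0.857% in the bins up to 8000, 16000 and 40000. Spread between cells narrowed with depth, with an SD over cells of 0.798 percentage points in the shallow tertile and 0.352 in the deep one. In macrophages these SDs were 1.10 and 0.415, and in neutrophils 0.518 and 0.552. Depth is the denominator of the share, so part of any such relation follows from the arithmetic, and that part was not tested.

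**Figure D3:**
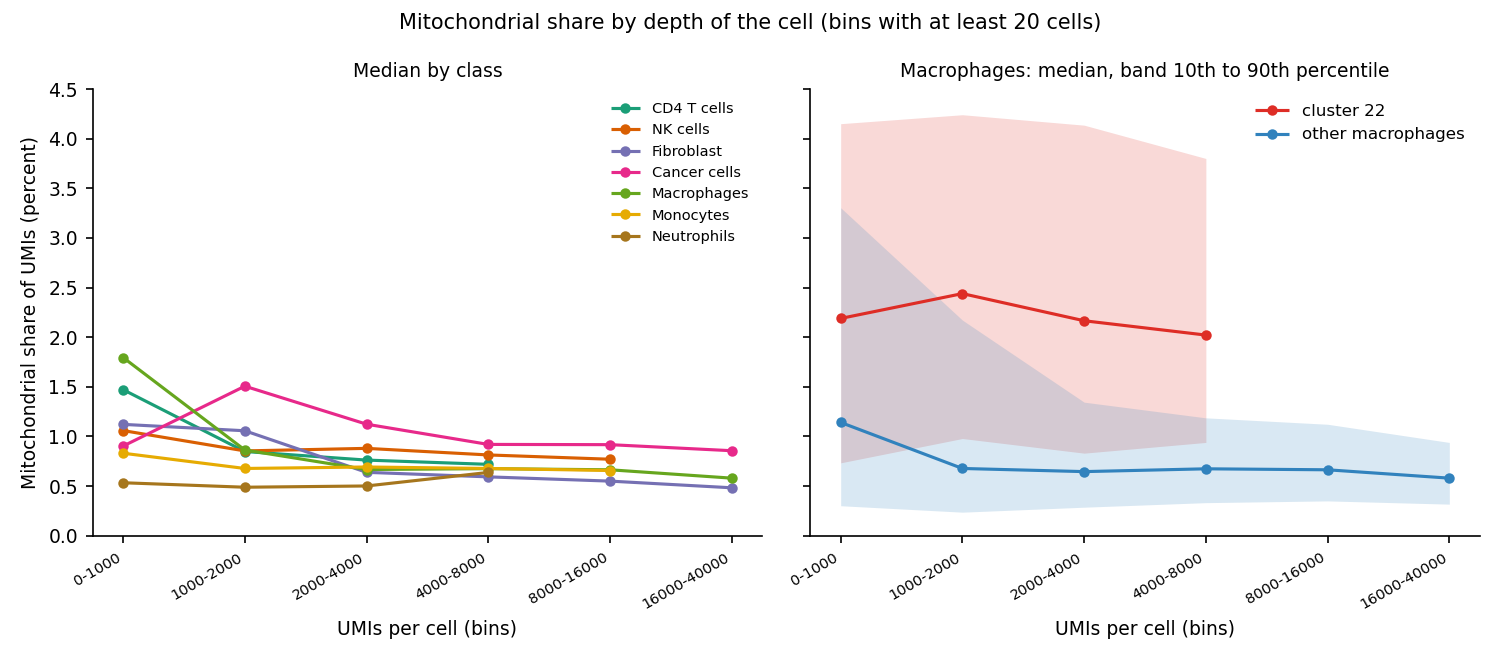
Median mitochondrial share (percent) against the UMI count of the cell in bins, for 7 classes (left) and for macrophage cluster 22 and all other macrophages with the 10th to 90th percentile as a band (right), pooled over tumors and for bins of at least 20 cells. Macrophages fall from 1.80% to 0.581% over the bins, neutrophils stay between 0.489% and 0.638%, and cluster 22 stays at 2.02% to 2.44%.

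Cells in S phase and G2M were compared with G1 cells of the same tumor and class, with phases as the authors called them from nuclear cell cycle genes. Cancer cells called S or G2M had the lower share. A call rests on the score alone and does not show that a cell was dividing: of 8853 neutrophils, 1778 were called S and 2764 G2M. The median of cancer cells was 0.945% ± 0.105 in G1, 0.887% ± 0.105 in S and 0.850% ± 0.101 in G2M over 16 tumors. The S value was lower in 16 of 16 tumors, with a difference of -0.0579 ± 0.0263 percentage points (exact sign-flip permutation test, adjusted p = 0.00024, from the smallest p that the test allows, 3.1e-05). The G2M value was lower in 15 of 16, with a difference of -0.0950 ± 0.0522 (same exact test, adjusted p = 0.00073). Cancer cells called S or G2M were also deeper, with a median of 14882 UMIs in S and 17083 in G2M against 10529 in G1. Within bins of UMI count, weighted by cells, a choice made after the unweighted values were seen, the differences were -0.0406 for S (adjusted p = 0.00085) and -0.0448 for G2M (adjusted p = 0.011), each lower in 14 of 16 tumors by the same exact test. With every bin weighted alike, the G2M difference was 0.0084 (exact sign-flip test, adjusted p = 0.95).

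Of 8 classes with at least 5 cells of each phase in every tumor, 3, or 37.5%, passed the threshold of 0.05 on the adjusted p for S against G1, and 4, or 50%, for G2M. Besides cancer cells, CD4 T cells were higher in S, at 0.941% against 0.790% in G1 (13 of 16 tumors, exact sign-flip test, adjusted p = 0.018). Fibroblasts were higher in S, at 0.765% against 0.615% (13 of 16, adjusted p = 0.016), and in G2M, at 0.806% (14 of 16, adjusted p = 0.022, exact tests). The fibroblast differences turned within bins of UMI count, weighted by cells, to -0.0647 for S (adjusted p = 0.33) and -0.0832 for G2M (adjusted p = 0.25, exact tests), and the median UMI count was 5006 in G1, 1462 in S and 1259 in G2M. Other classes gained a call for S in the same weighted bins by the exact test, with DC at -0.0547 (lower in 12 of 16 tumors, adjusted p = 0.0082) and monocytes at -0.0295 (lower in 13 of 16, adjusted p = 0.0056), against -0.0344 (adjusted p = 0.064) and -0.0102 (adjusted p = 0.20) without bins. With bins weighted alike, DC and monocytes also passed, at adjusted p = 0.0098 and 0.0094 (exact tests). CD4 T cells did not have enough cells in every tumor for a value within bins.

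In G2M, monocytes were higher by 0.0313 ± 0.0537 percentage points (12 of 16 tumors, exact sign-flip test, adjusted p = 0.047) and neutrophils lower, with a difference of -0.0285 ± 0.0461 (11 of 16, adjusted p = 0.047). By the exact test both calls were lost within the weighted bins, at adjusted p = 0.57 for monocytes and 0.25 for neutrophils, and the count of 4 fell to 2 without any 1 of 9 tumors, wild type 1, 3, 4 and 6, all m.11944 60% tumors, m.12436 60% 1 and m.12436 80% 1. Macrophages had 0.709% in G1, 0.704% in S and 0.704% in G2M (adjusted p = 0.65 and 0.70), and NK cells 0.851%, 0.839% and 0.898% (adjusted p = 0.46 and 0.41, exact sign-flip tests).

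**Figure D4:**
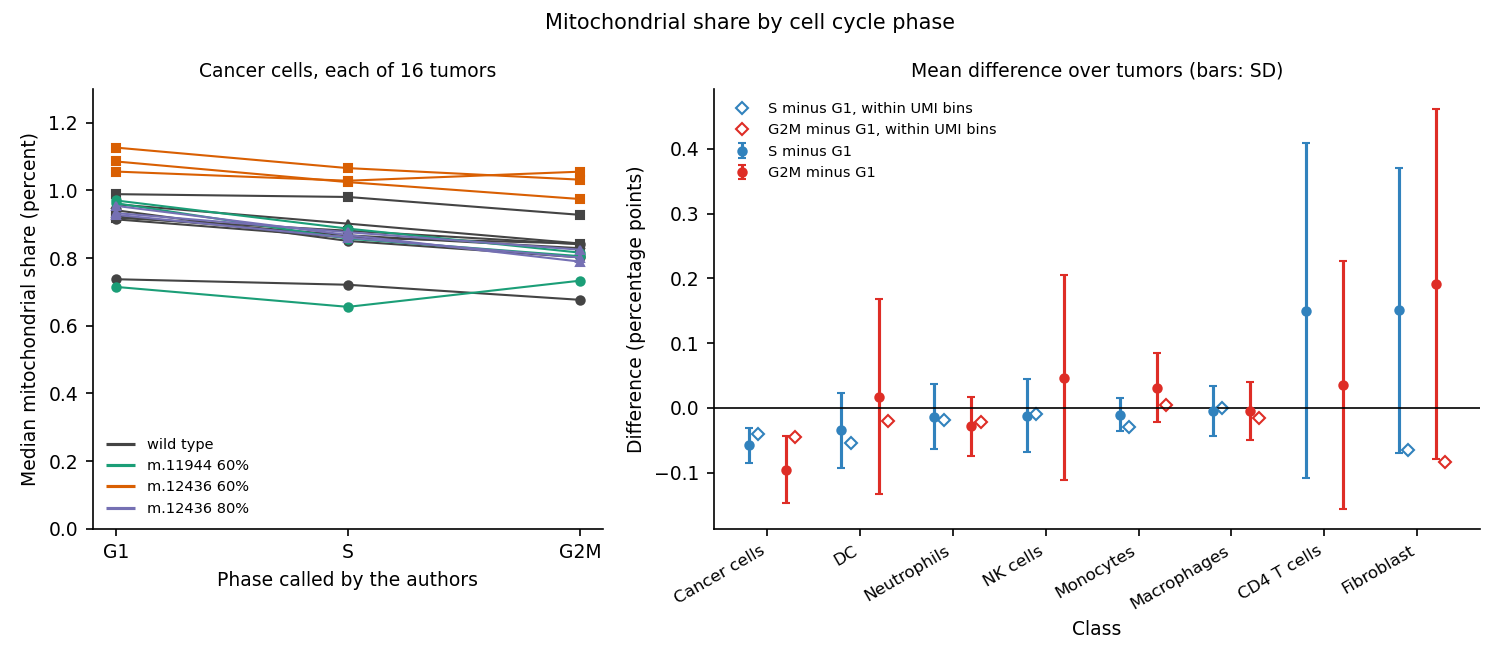
Median mitochondrial share of cancer cells in G1, S and G2M in each of 16 tumors (left, percent) and the mean difference of S and G2M from G1 in 8 classes (right, percentage points), with bars of 1 SD over tumors and open diamonds for the difference within bins of UMI count, weighted by cells. Lines of cancer cells fall from G1 to S in 16 of 16 tumors, and the fibroblast values lie above 0 while their diamonds lie below it.

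Single tumors had medians over all cells of 0.675% in wild type 3 to 0.873% in m.11944 60% 3. The lower end varied less between tumors than the upper end in percentage points: the 10th percentile ranged from 0.290% to 0.453% and the 90th from 1.24% to 2.15%. The highest 90th percentile was that of wild type 2, where 2.11% of cells lay at 4% or more (95% Clopper-Pearson interval 1.78% to 2.48%, counting error only), and 0.543% to 1.11% did in the other tumors. Group means of the tumor median were 0.776% ± 0.0703 in wild type (n = 7), 0.811% ± 0.101 in m.11944 60%, 0.830% ± 0.0323 in m.12436 60% and 0.701% ± 0.0142 in m.12436 80% (n = 3 each).

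The comparison of mutant with wild-type tumors asks whether the mitochondrial share of each class followed the edit in the cancer cells. Over all 9 mutant tumors it did not pass the test in any class. Of 12 classes, 0, or 0%, were past the threshold by the exact two-sided permutation test over tumors, 0 at an unadjusted p under 0.05, and the smallest p was 0.13 in endothelial cells, at 0.885% ± 0.169 in mutant and 1.13% ± 0.459 in wild-type tumors (adjusted p = 0.48). Differences were negative in 10 classes and positive in cancer cells and fibroblasts. Cancer cells, which carry the edit, had 0.939% ± 0.119 in mutant and 0.887% ± 0.0793 in wild-type tumors, a difference of 0.0521 percentage points with an interval of -0.0619 to 0.168. Permuted within batches, also 0 of 12 classes passed, and none at an unadjusted p under 0.05.

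The pooled result held groups that lay on different sides. At 60%, levels were near wild type, with 0 of 12 classes, or 0%, past the exact permutation test and 0 at an unadjusted p under 0.05. Cancer cells had 0.961% ± 0.145 in 6 tumors at 60% (exact permutation test, adjusted p = 0.97), monocytes 0.743% ± 0.0782 against 0.741% ± 0.0917 in wild type, and macrophages 0.757% ± 0.0516 against 0.739% ± 0.0893. Neutrophils had 0.539% ± 0.115 against 0.554% ± 0.103. Endothelial cells had the smallest p, at 0.907% ± 0.0513 (adjusted p = 0.97 by the same exact permutation test).

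In the m.12436 80% tumors, 7 immune classes had a lower share than in wild-type tumors, while B cells and neutrophils did not pass the test. The monocyte medians of the 3 tumors were 0.524%, 0.542% and 0.561%, and those of the 7 wild-type tumors ran from 0.621% over a median of 0.734% to 0.867%. Macrophages had 0.526%, 0.539% and 0.544% at 80%, and 0.639%, 0.711% and 0.845% as lowest, median and highest in wild type. DC had 0.394%, 0.409% and 0.439%, and 0.508%, 0.595% and 0.702% in wild type. CD8 T cells had 0.557%, 0.593% and 0.604%, and 0.696%, 0.822% and 1.00% in wild type. No 80% tumor overlapped wild type in any of these classes.

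Cancer cells did not share this pattern. Their medians at 80% were 0.881%, 0.899% and 0.910%, within the wild-type range of 0.724% to 0.982%, and the difference was 0.0095 percentage points with an interval of -0.107 to 0.124 (exact permutation test, adjusted p = 0.83). Neutrophils were lower on average but overlapped, with 0.404%, 0.406% and 0.466% at 80% and 0.391% to 0.676% in wild type (adjusted p = 0.15, exact test).

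Of 12 classes, 7, or 58.3%, passed the exact two-sided permutation test for 80% against wild type, each lower and without overlap and each at an adjusted p of 0.043. The smallest p that 120 splits allow is 0.0083, reached in DC and CD8 T cells. Means fell from 0.741% to 0.543% in monocytes, from 0.739% to 0.536% in macrophages, from 0.606% to 0.414% in DC, from 0.836% to 0.585% in CD8 T cells, from 0.886% to 0.531% in CD4 T cells, from 0.894% to 0.627% in NK cells and from 1.01% to 0.711% in T cells. Intervals of the difference were -0.336 to -0.0789 percentage points in monocytes and -0.314 to -0.0954 in macrophages. B cells, endothelial cells and fibroblasts, with 0.914%, 0.840% and 0.663%, did not pass (adjusted p = 0.53, 0.53 and 0.83, exact tests).

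In monocytes and macrophages, group means of the outer percentiles were lower as well, not those of the center alone. Single tumors could still overlap at the ends. The 10th percentile of monocytes was 0.265% in m.12436 80% 1 and 0.263% in wild type 3, and the 90th of DC 0.930% and 0.897%. In monocytes the 5th, 25th, 75th and 95th percentiles were 0.187%, 0.373%, 0.740% and 1.15% at 80% and 0.287%, 0.540%, 0.983% and 1.73% in wild type, as means over tumors. In macrophages they were 0.181%, 0.366%, 0.760% and 2.01%, against 0.260%, 0.520%, 1.08% and 2.87%. In cancer cells they were 0.407%, 0.669%, 1.19% and 2.03%, against 0.380%, 0.669%, 1.14% and 1.89%. By the mean, the 10th percentile or the 90th percentile of a tumor in place of the median, 0 of 12 classes passed.

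All m.12436 80% tumors are in the third batch, together with only wild type 6. There, macrophages had 0.655% in wild type 6 and 0.536% on average at 80%, monocytes 0.672% and 0.543%, DC 0.550% and 0.414%, CD8 T cells 0.741% and 0.585%, CD4 T cells 0.783% and 0.531%, NK cells 0.774% and 0.627%, T cells 0.851% and 0.711% and neutrophils 0.515% and 0.426%. The mean at 80% was below wild type 6 in 10 of 12 classes and all 3 tumors were below it in 9, cancer cells among them, at 0.929% in wild type 6 and 0.897% at 80%. Permuted within the batch, p cannot go under 0.25 and 0 of 12 classes passed. Wild type 6 was itself below the wild-type mean in each of the 7 classes, so heteroplasmy, batch and the lines themselves cannot be told apart with 1 wild-type tumor.

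Depth moved with this result as well. Median UMI counts were lower at 80%, at 2010 in monocytes and 3084 in macrophages as means of tumor medians, against 3813 and 5471 in wild type 6 and 3134 and 4439 over all wild-type tumors. Mitochondrial UMIs were 11.3 per median monocyte at 80% and 25 in wild type 6, and 17 and 38 per macrophage. The part of this depth difference in the lower share was not tested. Among cells of 2000 to 10000 UMIs, 6 classes passed the exact permutation test for 80% against wild type, with the smallest adjusted p at 0.046. Ribosomal shares were 14.3% and 14.4% in monocytes of the 80% tumors and wild type 6. In the other classes past the threshold they were higher at 80%, with the widest gap in CD8 T cells, at 22.3% and 20.7%.

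**Figure D5:**
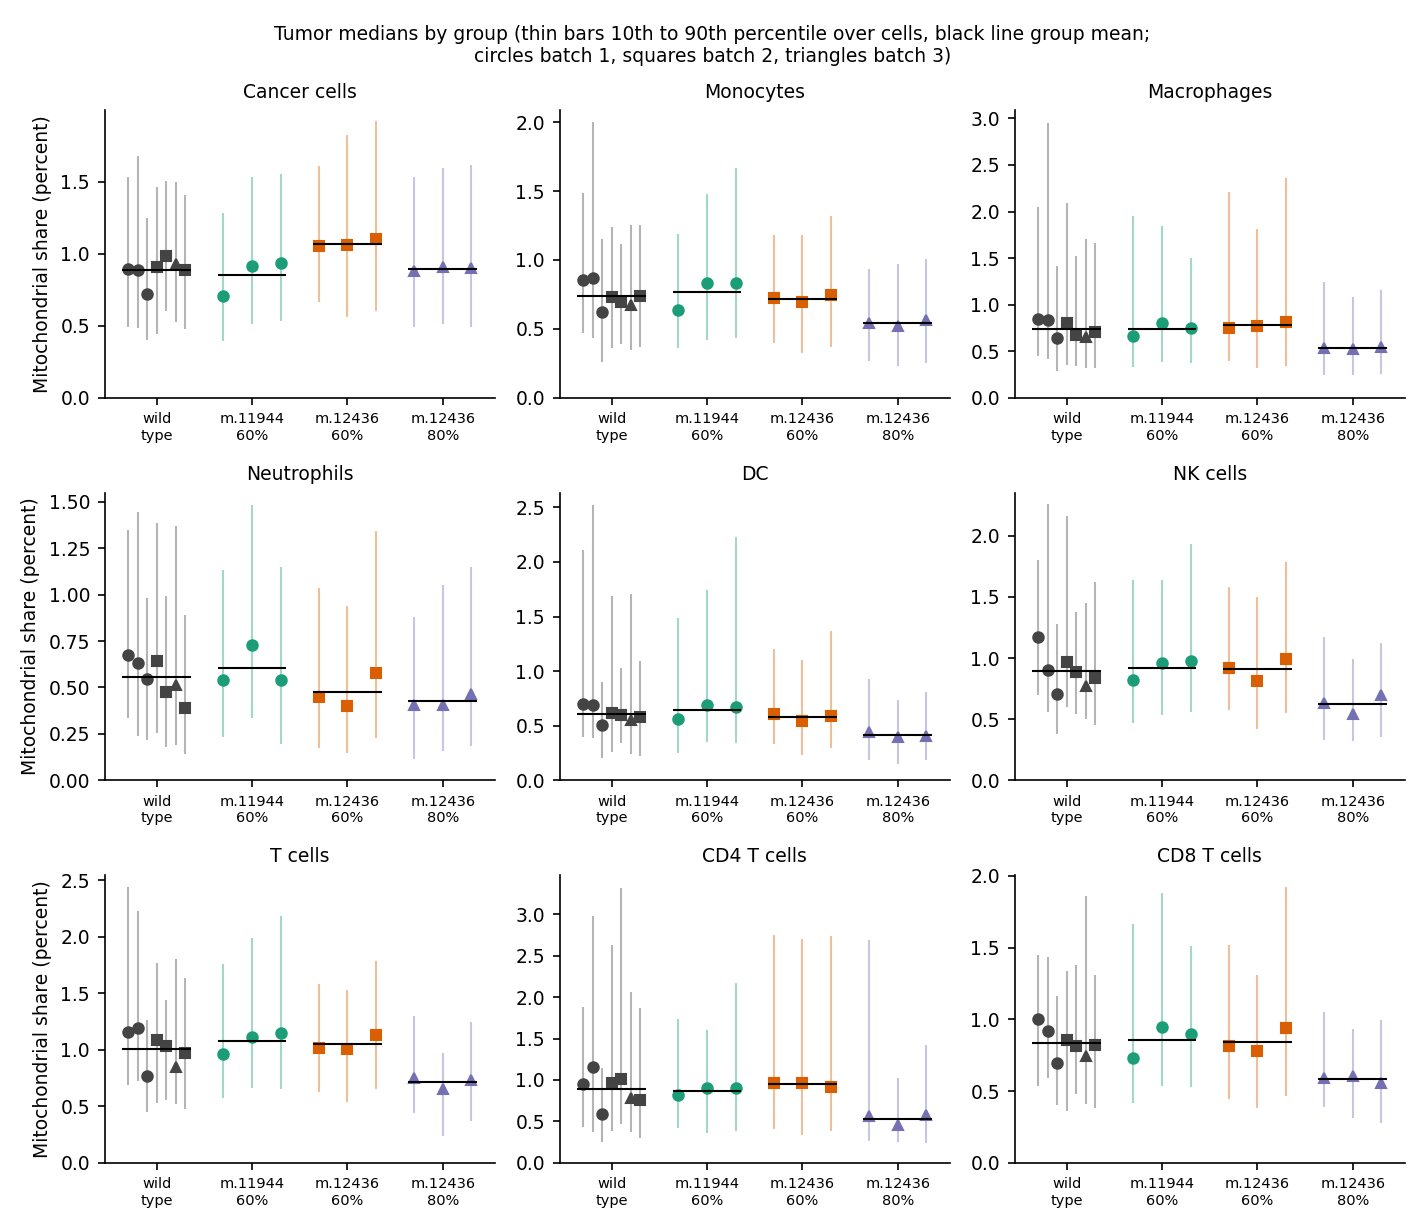
Median mitochondrial share (percent, points) of each tumor in 9 classes by group, with the 10th to 90th percentile over its cells as thin bars, the group mean as a black line and the batch as the shape of the point. The 3 m.12436 80% tumors lie below all wild-type tumors in monocytes, macrophages, DC, NK cells, T cells, CD4 T cells and CD8 T cells, and among them in cancer cells and neutrophils.

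The 80% call rested on few tumors. Left out in turn, wild type 4, 5 or 7 or any 80% tumor left 0 classes past the threshold, wild type 2 or 6 left 3, wild type 1 left 6 and wild type 3 left 7. The differences stayed negative in all 7 classes in each of these 10 fits, from -0.177 to -0.218 percentage points in monocytes and from -0.185 to -0.219 in macrophages. Fewer tumors allow fewer splits, which raises the smallest p.

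Against the 6 tumors at 60%, which are all in other batches, the same 7 classes were lower at 80%. Of 12 classes, 7, or 58.3%, passed the exact permutation test, each at an adjusted p of 0.020 and without overlap, and since no tumor of the third batch is at 60%, heteroplasmy cannot be told apart from batch. Monocytes had 0.543% at 80% and 0.743% at 60%, macrophages 0.536% and 0.757%, and T cells 0.711% and 1.06%. Cancer cells had 0.897% and 0.961% (adjusted p = 0.54, exact test). Without any single 80% tumor 0 classes passed, and 0 with the replicate number as a block, with the differences still negative in all 7. Both leave fewer splits, which raises the smallest p. With the block, each of the 7 had the smallest p that 27 splits allow, 0.037, at an adjusted p of 0.063 (exact permutation test). These failures to pass therefore say little about the differences. Both comparisons use the same 3 tumors at 80%.

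The 2 mutations at 60% could be compared only between batches, and 3 tumors against 3 cannot give a p under 0.10. Cancer cells had 0.706%, 0.913% and 0.935% in m.11944 60% tumors and 1.05%, 1.06% and 1.10% in m.12436 60% tumors, without overlap. CD4 T cells did not overlap either, at 0.814% to 0.904% and 0.913% to 0.969%, so 2 of 12 classes were without overlap. In the second batch, the m.12436 60% cancer cells at 1.07% ± 0.0266 were also above all 3 wild-type tumors, at 0.926% ± 0.0489, and cancer cells were the only 1 of 12 classes there in which the groups did not overlap. In the first batch, m.11944 60% cancer cells had 0.851% ± 0.127 and wild type 0.835% ± 0.0966, with overlap. The difference between both effects, permuted within batches, passed in 0 of 12 classes, with p = 0.26 in cancer cells by the exact test. For m.12436 60% against m.11944 60%, 0 of 12 classes, or 0%, passed.

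Tumors differ in the makeup of their cells, so the 12 class medians of each tumor were also weighted alike, by the share of each class in the series. These standardized values were 0.658% to 0.872% in wild type, 0.684% to 0.915% at 60%, and 0.667%, 0.671% and 0.693% at 80%. Mutant and wild-type tumors differed by -0.0164 percentage points (interval -0.111 to 0.0801, exact permutation test, p = 0.71). The 80% tumors were lower than wild type by 0.116 percentage points (p = 0.050, exact permutation test), but wild type 3, at 0.658%, was below all of them.

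Among clusters, 0 of 35, or 0%, passed the exact permutation test between all mutant and wild-type tumors, and 0 had an unadjusted p under 0.05. The smallest p values belonged to macrophage cluster 30, at 0.674% ± 0.154 in mutant and 0.809% ± 0.104 in wild-type tumors, fibroblast cluster 23, at 0.524% ± 0.0466 and 0.588% ± 0.0947, and cancer cell cluster 8, at 0.966% ± 0.0988 and 0.888% ± 0.0680, each with an adjusted p of 0.55 (exact test). At the 5th, 10th, 25th, 75th, 90th and 95th percentile of the tumors, no class passed the same test either, with the smallest adjusted p of 0.34 at the 25th.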

How the data were processed

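Single-cell RNA sequencing libraries of 16 tumors were analyzed from the deposited table of cells. Cell Ranger 7.0.1 (GRCm39) and Seurat were used by the authors, who kept out cells over 5% mitochondrial UMIs, under 500 genes or over 37000 UMIs. Classes were named with scType at first, then with clustifyr and a manual review of marker genes. Malignant cells were assigned by little or no Ptprc, an immune cell gene, a high epithelial score and aneuploidy called by copyKAT. The deposited UMI counts and gene counts are not normalized. The deposited mitochondrial, ribosomal and dissociation values are percentages of UMIs computed by the authors, who do not list the genes, and the doublet score and cell cycle scores are the authors' own. The table holds 0 cells called doublets by the authors, whose doublet step is not given in the sources used here, and no further doublet caller was run. Other columns were read only for class, cluster, phase, ploidy and batch.

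Tumors, not cells, were replicates. Medians of each tumor and class with at least 5 cells in every tumor (12 classes) were compared by exact two-sided permutation tests, and phases by exact sign-flip tests over tumors, with Benjamini-Hochberg adjustment over classes or clusters and a threshold of 0.05. Intervals of differences are 95% and invert the test. Nothing in the labels says whether tumors of 1 group shared an injection of cells, so p-values measure the spread between these tumors. Alternatives were other summaries, depth and gene limits, within-batch and replicate block permutations, and leaving out each tumor. Classes and clusters named are all 15 classes, with full statistics for cancer cells, monocytes, macrophages, neutrophils, classes past the threshold and those of smallest p, the extreme clusters of each class and the 3 clusters of smallest p; cluster 36 was named after its value was seen. The classes, lists and tests were chosen with earlier results of these data known. Permutation was tested on simulated data, where shifts of 4 SD were called in 97.25% of the shifted classes for 80% against wild type, and in 0% for 3 tumors against 3. The simulated classes varied independently of each other and 4 SD is a large shift. Recovery of smaller shifts, or in classes that vary together, is not given here. Python 3.11.15, numpy 2.4.6, scipy 1.17.1 and pandas 2.3.3 were used.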

Additional observations from a re-analysis of the deposited data

Results flagged for a closer look

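In 15 groups of 4 to 10 tumors, 1 tumor stood apart by the Dixon criterion at 95% in 4 values, where chance flags about 1 group in 20. The B cell median of wild type 2 was 1.96%, from 15 cells, with 0.759% to 1.19% in the other wild-type tumors. The endothelial median of wild type 5 was 2.14%, from 12 cells, with 0.806% to 1.10% in the others. The cancer cell median of wild type 3 was 0.724%, with 0.889% to 0.982% in the others. The percentage of cells at 4% or more was 2.11 in wild type 2, with 0.543 to 1.10 in the other wild-type tumors. The difference of effects between both mutations within batches was examined in 12 classes, and 0 were flagged.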

How the results depend on the processing

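The cause of these changes was not tested unless named. For 80% against wild type, the count of 7 classes became 0 with the mean, the 10th percentile, the 90th percentile, within batches and with the replicate block, and lay between 0 and 7 when a tumor was left out. For 80% against 60% it became 4 with the 90th percentile, 0 with the replicate block and 0 without any one 80% tumor, a range of 0 to 7. For 80% against wild type, p cannot go under 0.25 within batches or with the replicate block, so no class could pass there. Leaving out an 80% tumor also raises the smallest p. For G2M against G1 the count of 4 became 0 within bins of UMI count and 1 with bins weighted by cells, and lay between 2 and 4 with a tumor left out. The standardized difference of -0.0164 became 0.0057 within batches and 0.0283 without the third batch, an alternative chosen after the values were seen.

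Reversals occurred in differences near 0, under depth bins and in some larger differences. The endothelial differences of -0.241 over all mutant tumors and -0.218 at 60% became positive with the replicate block. The block kept only replicate numbers shared by all groups, which leaves out wild type 5, with its endothelial median of 2.14%. Against G1 with the mean over cells, monocytes in S gave 0.0057, macrophages 0.0082 in S and 0.0726 in G2M, past the exact test at an adjusted p of 0.034. Within bins of UMI count, fibroblasts gave -0.115 in S and -0.107 in G2M, cancer cells 0.0084 and neutrophils 0.0056 in G2M. With weighted bins, macrophages in S gave 0.00046 and fibroblasts -0.0647 in S and -0.0832 in G2M. With a tumor left out, macrophages ranged from -0.0082 to 0.0022 in S and from -0.0117 to 4.9e-05 in G2M. For all mutant tumors, neutrophils gave 0.0186 in cells of 2000 to 10000 UMIs, endothelial cells 0.0170 with the replicate block and macrophages 0.0040 without the third batch. At 60%, monocytes gave -0.0209 with the 90th percentile, -0.0095 within batches and -0.0386 with the replicate block, where macrophages gave -0.0180 and endothelial cells 0.0393. Neutrophils at 60% gave 0.0128 in cells with at least 1000 genes, 0.0573 in cells of 2000 to 10000 UMIs and 0.00309 in G1 cells. With a tumor left out, monocytes at 60% ranged from -0.0180 to 0.0235, neutrophils from -0.0531 to 0.0128 and cancer cells at 80% from -0.0178 to 0.0251. Cancer cells at 80% gave -0.0181 in cells of 2000 to 10000 UMIs and -0.0320 within batches. For m.12436 against m.11944 at 60%, the 10th percentile gave -0.00915 in macrophages and -0.0126 in CD4 T cells, and cells of 2000 to 10000 UMIs gave -0.0184 in macrophages.

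Of 1239 alternative values, 1014 were rated the same, 152 lost the call, 4 gained it, 40 reversed and 29 moved. A difference was the same if it kept its direction and side of the threshold. A count of classes was the same if it changed little, as from 7 to 5 with the pooled share of UMIs for 80% against wild type. A difference that changed direction was rated reversed whatever its call. Tumors of the same number deviated together in 7 of 18 pairs (r over 0.1, range -0.751 to 0.604), so the numbers were not taken as pairs, and the replicate block changed no call beyond those given. Leaving out cluster 22 left 7 classes past the threshold for 80% against wild type. Depth limits single cells: a median cell had 35 mitochondrial UMIs, and neutrophils 7.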

Other observations

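The level of cancer cells relative to monocytes of the same tumor was computed after the values were seen and is given without a test. Cancer cells had 1.21 ± 0.150 times the monocyte median in wild-type tumors (1.03 to 1.41, n = 7), 1.11 ± 0.0102 times in m.11944 60%, 1.49 ± 0.0359 times in m.12436 60% and 1.65 ± 0.0712 times in m.12436 80% tumors (n = 3 each). By batch, the wild-type ratio was 1.08 in the first (n = 3), 1.28 in the second (n = 3) and 1.38 in wild type 6, the only wild-type tumor of the third. Relative to macrophages the ratio was 1.21 ± 0.166 in wild type and 1.67 ± 0.0509 at 80%.

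Across cells within a tumor, the mitochondrial share and the ribosomal share were negatively related in cancer cells in 16 of 16 tumors (median Spearman rho -0.326), in endothelial cells in 10 of 10 with enough cells (-0.536) and in macrophages in 16 of 16 (-0.229). In neutrophils the relation was negative in 4 of 16 tumors, with a median of 0.0550. Both shares have the UMI count as denominator, cells are not independent replicates, and the values are a description. The share of dissociation-related genes was negatively related to the mitochondrial share in cancer cells in 16 of 16 tumors (-0.252).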
